A study of Arabidopsis thaliana with 9 samples.

Results

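Convergent pairs of Pol V transcripts are pairs in which a plus-strand and a minus-strand transcript run towards each other and overlap with their 3′ ends. The members were selected by position and by measured values: at most 3 reads in each *nrpe1* library, a length under 1400 bp, and an overlap of at least 1 base with a listed transcript of the other strand. The partner was the transcript with the longest overlap, and the plus-strand transcript had to have both the lower start and the lower end. Of the 4502 transcripts in the Pol V list, 322 (7.15%) met this rule, 157 plus-strand and 165 minus-strand transcripts. They formed 189 pairs. Both transcripts were members in 133 pairs. In the other 56 pairs the partner did not meet the rule: 36 partners were 1400 bp or longer, 20 had more than 3 reads in an *nrpe1* library (4 had both properties), and 4 were within the limits but had a longer overlap with another transcript. None of the 378 transcripts belonged to more than 1 pair.

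Pol V is a plant-specific relative of RNA polymerase II that works in RNA-directed DNA methylation. Its noncoding transcripts stay on chromatin, where ARGONAUTE 4 (AGO4) loaded with small interfering RNA is thought to find them by base pairing and to bring in the methyltransferase DRM2. Pol V is known to act at transposons and repeats and close to genes, and the methylation it directs falls on cytosines in every sequence context. A locus transcribed on both strands can give RNA of both polarities over the same stretch, and in a convergent pair that stretch is the 3′ part of both transcripts.

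RNA was immunoprecipitated from the aerial parts of *Arabidopsis* seedlings that had grown on soil for about 2.5 weeks and had been fixed with 0.5% formaldehyde. Anti-NRPE1, which recognizes the catalytic subunit of Pol V, was used on *nrpe1* (the nrpd1b-11 allele) and on Col-0 wild type, with 2 biological repeats of each (Pol V RIP-seq). An antibody against AGO4 was used on *ago4* (the ago4-1 allele, introgressed into Col-0) and on Col-0, with 1 library of each (AGO4 RIP-seq). All plants were of the Col-0 background, both mutants affect the whole plant, and the tissue mixes many cell types. The values are raw reads per called transcript. On all 4502 transcripts the libraries of *nrpe1* held 3049 reads in repeat 1 and 1980 in repeat 2, and those of Col-0 held 251106 and 189141. How deeply each library was sequenced in total is not known here, and the genotypes were compared as if equally deep.

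The shortest overlaps show how little sequence some pairs share. Positions are those of TAIR10 and the letters those of the RefSeq genome TAIR10.1, both written on the plus strand. The files do not state whether positions count from 0 or 1, and they were read here as counting from 1, so printed ends may be off by 1 base. PVTrans1474 and PVTrans1475 overlapped at chr2:6016515-6016520, which counts as 5 bp when the start is subtracted from the end and as 6 letters when both ends are included. Below, these letters are in capitals, with 40 bases on each side (chr2:6016475-6016560). The overlap of PVTrans4104 with PVTrans4105 (52 bp, chr5:15003589-15003641) and that of PVTrans2330 with PVTrans2332 (55 bp, chr3:10953448-10953503) are shown whole. In these overlaps, capitals mark the CG sites, 1 of the 3 contexts in which plant cytosines are methylated.
PVTrans1474/PVTrans1475: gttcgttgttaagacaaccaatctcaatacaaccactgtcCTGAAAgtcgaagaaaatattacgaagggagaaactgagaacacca
PVTrans4104/PVTrans4105: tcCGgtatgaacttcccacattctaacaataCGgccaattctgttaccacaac
PVTrans2330/PVTrans2332: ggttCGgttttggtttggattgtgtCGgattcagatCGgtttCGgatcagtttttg

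Stretches around the middle of longer overlaps are shown for 2 pairs, again with the CG sites in capitals. PVTrans2729/PVTrans2730 (300 bases, chr3:17848901-17849200) is a locus for which the study designed primers. PVTrans985/PVTrans986 (200 bases, chr1:25332409-25332608) is a pair whose strands differed in Col-0 reads, as described further on. The stretch of PVTrans2729/PVTrans2730 had 9 CG sites and that of PVTrans985/PVTrans986 had 4.
PVTrans2729/PVTrans2730: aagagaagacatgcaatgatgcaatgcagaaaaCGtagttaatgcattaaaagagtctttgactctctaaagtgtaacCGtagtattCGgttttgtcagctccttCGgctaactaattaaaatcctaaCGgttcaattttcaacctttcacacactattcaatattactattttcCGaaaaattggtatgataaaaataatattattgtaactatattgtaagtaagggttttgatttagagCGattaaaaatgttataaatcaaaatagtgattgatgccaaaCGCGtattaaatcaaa
PVTrans985/PVTrans986: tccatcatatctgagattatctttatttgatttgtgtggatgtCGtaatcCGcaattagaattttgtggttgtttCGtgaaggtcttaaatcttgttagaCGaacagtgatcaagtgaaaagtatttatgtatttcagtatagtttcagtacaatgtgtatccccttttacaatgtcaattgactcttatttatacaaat

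The next sequences show how a convergent pair can hold a copy of its own sequence in the other orientation, or share sequence with another convergent pair. PVTrans685/PVTrans686 contained an inverted repeat with stems of 213 bp. The first 130 bases of its left stem (chr1:18456780-18456909, plus strand) and the matching 130 bases of its right stem (chr1:18457222-18457351, minus strand) are given with the 119 equal bases in capitals.
PVTrans685/PVTrans686 left stem: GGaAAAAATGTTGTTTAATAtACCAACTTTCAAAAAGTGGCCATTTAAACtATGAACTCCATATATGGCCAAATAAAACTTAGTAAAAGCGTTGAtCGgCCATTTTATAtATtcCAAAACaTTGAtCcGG
PVTrans685/PVTrans686 right stem: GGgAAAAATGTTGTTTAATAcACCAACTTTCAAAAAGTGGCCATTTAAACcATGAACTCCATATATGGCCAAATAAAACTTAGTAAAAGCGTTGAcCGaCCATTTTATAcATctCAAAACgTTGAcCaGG

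The overlaps of PVTrans3322/PVTrans3323 and PVTrans4498/PVTrans4499 matched over 437 aligned bases with 85.1% identity. The first 130 aligned bases are shown, at chr4:8039928-8040057 (plus strand, in the transcribed pseudogene AT4G13900) and chr5:26415477-26415606 (minus strand, outside annotated genes). Of these, 109 were equal and are in capitals.
PVTrans3322/PVTrans3323: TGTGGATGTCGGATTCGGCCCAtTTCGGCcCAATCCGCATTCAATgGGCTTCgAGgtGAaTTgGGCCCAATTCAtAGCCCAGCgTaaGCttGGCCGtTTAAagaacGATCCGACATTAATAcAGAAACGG
PVTrans4498/PVTrans4499: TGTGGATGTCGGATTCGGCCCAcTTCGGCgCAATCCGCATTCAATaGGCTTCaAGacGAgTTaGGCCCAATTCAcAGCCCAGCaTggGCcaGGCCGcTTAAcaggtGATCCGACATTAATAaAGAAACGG

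Convergent transcripts had almost no reads in *nrpe1*, as the rule required. In *nrpe1*, 277 of the 322 (86.0%) had no read in either repeat, 32 had at most 1 read, 11 at most 2 and 2 at most 3. The share without a read was 82.3% in the whole list. Within the same limits it was 87.1% in divergent, 86.8% in nested and 88.6% in single-strand transcripts. All members together had 7 reads in *nrpe1* repeat 1 and 56 in repeat 2, against 18038 and 13572 in Col-0. With counts of 3 or fewer set to 3 reads, the median member was at least 13.7-fold lower in *nrpe1* than in Col-0, and the single bounds lay between 5.33 and 64.3. The same measure had a median of 12 in the whole list. The *nrpe1* reads chose the members, and the authors had called every listed transcript on the same libraries, so no test is given. The antibody recognizes NRPE1, the protein that *nrpe1* affects. In RIP-seq alone, a lower count there cannot tell RNA that was not precipitated from RNA that was not made. At selected loci the paper also measured RNA by RT-qPCR and reports strongly reduced accumulation in *nrpe1*. It takes this as a sign that the transcripts are products of Pol V. In tissue of mixed cells, a lower count from fewer cells of a type cannot be told apart from less RNA per cell. The bounds cover counting error only.

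In Col-0 the members had a median of 48 reads in repeat 1 (6 to 252) and 34.5 in repeat 2 (3 to 205). The whole list had medians of 43 and 32. The median length of the members was 764.5 bp (155 to 1374 bp), against 689 bp in the whole list, which is not limited in length. Per length, the members had a median of 5.40 Col-0 reads per 100 bp and the whole list 5.66. The members took 7.18% of the Col-0 reads on listed transcripts in each repeat, close to their 7.15% share of the list. They were found on all 5 chromosomes, with 71, 64, 63, 54 and 70 transcripts on chromosomes 1 to 5.

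The repeats varied widely for single transcripts. The log2 ratio of repeat 1 over repeat 2 in Col-0 had a median of 0.47 and an SD of 1.03 over the 322 members. The counts of 30 members (9.32%) differed more than 4-fold between the repeats, against 10.1% of the whole list. Single counts are therefore given for both repeats below.

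Members closest to the limits looked like the transcripts just outside. PVTrans3829 (1374 bp) had 0 and 0 reads in *nrpe1* and 61 and 121 reads in Col-0 in repeats 1 and 2, and PVTrans336 (1360 bp) had 0 and 0 in *nrpe1* and 52 and 39 in Col-0. Just past the limit on length, PVTrans2906 (1406 bp) had 0 and 0 reads in *nrpe1* and 46 and 46 in Col-0, and PVTrans2938 (1410 bp) had 0 and 0 in *nrpe1* and 59 and 79 in Col-0. PVTrans3205 and PVTrans4495 had 0 and 3 reads in *nrpe1*, and 74 and 41 or 58 and 53 reads in Col-0, while PVTrans1788, left out with 0 and 4 reads in *nrpe1*, had 71 and 35 in Col-0. Across both limits the Col-0 counts were in the same range.

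Most convergent pairs shared a large part of their length. The overlap had a median of 530 bp (interquartile range 372 to 746 bp), and the pair as a whole spanned a median of 1108 bp. The overlap took a median of 53.0% of that span. The stretch covered by 1 strand alone, called an arm here, was 199 bp in the median plus-strand transcript and 154 bp in the median minus-strand transcript. Arms were as short as 1 bp, so that some pairs were close to complete overlap. Divergent pairs, which overlap with their 5′ ends, had a median overlap of 458 bp, nested pairs 551 bp and all 1181 opposite-strand pairs of the list 523 bp. The overlaps of the 3 arrangements were not compared by a test.

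**Figure D1:**
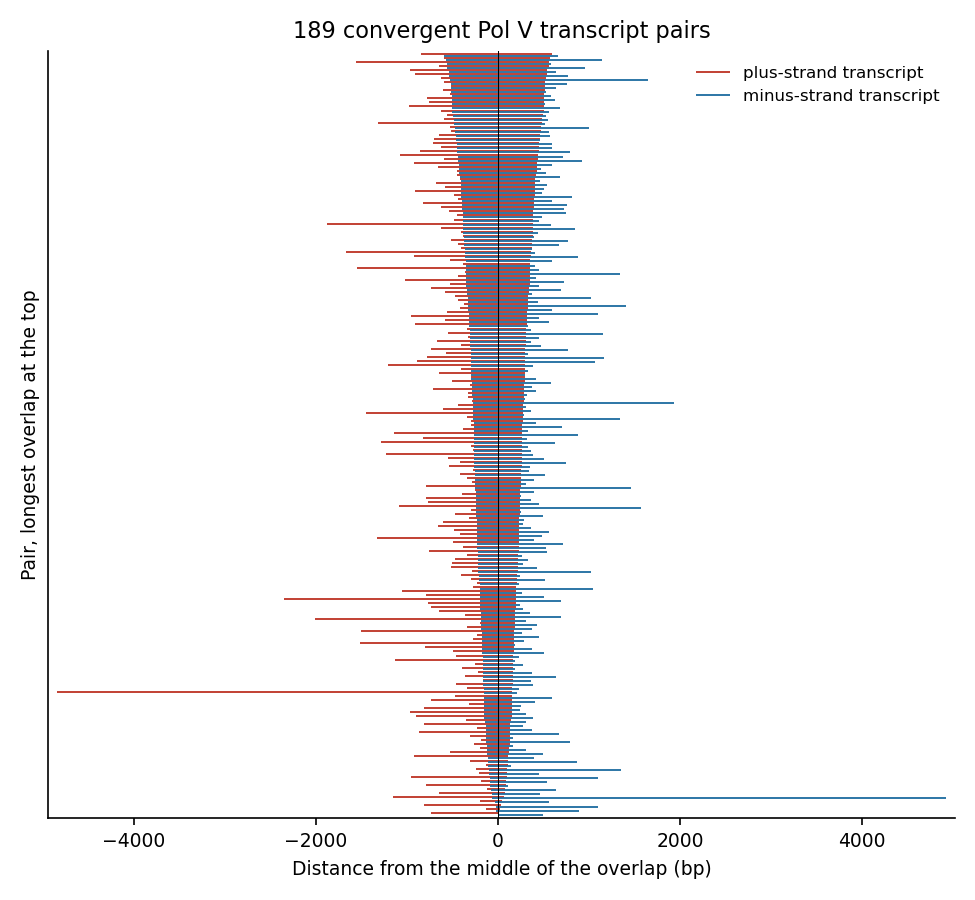
The 189 convergent pairs, each drawn as a red line (plus-strand transcript) and a blue line (minus-strand transcript) by distance in bp from the middle of the overlap, with the longest overlap at the top. Overlaps run from 1177 bp at the top to 5 bp at the bottom, and the 2 longest arms belong to PVTrans2250 (plus, 4685 bp) and PVTrans167 (minus, 4847 bp).

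The longest overlap was that of PVTrans2587/PVTrans2588 (1177 bp, chromosome 3, 16005056 to 16006564). PVTrans2587 had 72 and 14 reads in the Col-0 repeats and PVTrans2588 had 50 and 74, so the strand with more reads changed between the repeats. Next came PVTrans279/PVTrans280 (1150 bp, chromosome 1, 11733046 to 11734784), with 35 and 54 plus-strand and 70 and 72 minus-strand reads. In this pair the minus strand was higher in both repeats.

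PVTrans3846/PVTrans3847 and PVTrans4414/PVTrans4415 both overlapped by 1125 bp on chromosome 5. PVTrans3846 had 162 and 95 Col-0 reads and PVTrans3847 252 and 60. PVTrans4414 had 88 and 26 reads and PVTrans4415 106 and 32, which kept the strands within 2-fold in each repeat. None of these 4 pairs passed the strand test described below (adjusted p of 0.68, 0.64, 0.89 and 0.89 in edgeR). The overlap of PVTrans3846/PVTrans3847 has its middle in the protein-coding gene AT5G27893, and its span also reaches the pseudogene AT5G27895. Another pseudogene, AT5G53135, lies in the span of PVTrans4414/PVTrans4415.

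The 3 shortest overlaps differed in how steady their counts were. PVTrans1474 had 48 and 4 Col-0 reads and PVTrans1475 had 27 and 13. The next gene to the right starts 1550 bp away and is AGL44, a MADS-box gene also known as ANR1, a regulator of lateral root growth in response to nitrate. PVTrans4104 had 6 and 35 Col-0 reads and PVTrans4105 50 and 3, which put the minus strand far ahead in repeat 1 and the plus strand far ahead in repeat 2. The far end of PVTrans4105 reaches 39 bp into CAM1, a calmodulin gene. PVTrans2330 had 58 and 33 reads and PVTrans2332 73 and 47, with both strands within 2-fold in each repeat. PVTrans2330 had 0 and 6 reads in *nrpe1*, so only PVTrans2332 is a member of that pair.

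PVTrans2729/PVTrans2730, the locus with primers, lies on chromosome 3 from 17848231 to 17849365 with an overlap of 529 bp. Neither transcript had a read in *nrpe1*. In Col-0, PVTrans2729 had 53 and 39 reads and PVTrans2730 had 38 and 21. PVTrans2729 was the stronger transcript by reads in both repeats, but per base the order was reversed with both repeats summed. The log2 ratio of plus over minus was 0.66 ± 0.65 (SE from the edgeR fit to all pairs, 2 repeats), and its adjusted p in edgeR was 0.68. The locus lies between AT3G48209 and AT3G48210, and PVTrans2730 reaches 14 bp into AT3G48210.

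The strands of the listed pairs were mostly of similar strength in Col-0. Both strands had to be in the list, which keeps transcripts above a minimum number of Col-0 reads. Loci with a strand below this minimum are not among the pairs. The part of this filter in the balance between strands was not tested. With both repeats summed, plus and minus reads were within 2-fold of each other in 144 of 189 pairs (76.2%). The plus strand was at least 2-fold higher in 21 pairs and the minus strand in 24. The plus strand was the higher one in 92 pairs (48.7%), and the median share of the plus strand was 48.7% of the reads of a pair. All opposite-strand pairs of the list had 73.4% within 2-fold and a median plus share of 50%. Per base of transcript, 136 convergent pairs (72.0%) were within 2-fold.

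Single repeats gave wider ratios than their sum. Within 2-fold were 125 pairs in repeat 1 and 114 in repeat 2. The same strand was higher in both repeats in 119 pairs (63.0%, against 62.3% of all pairs). A difference of at least 2-fold in the same direction in both repeats was found in 13 pairs for the plus strand and in 15 for the minus strand, and in 5 pairs the repeats differed at least 2-fold in opposite directions. Across the 189 pairs, the log2 ratios of repeats 1 and 2 had a Spearman correlation of 0.42. The Col-0 reads of plus and minus transcripts had a Spearman correlation of 0.25 across pairs (0.14 in repeat 1 and 0.35 in repeat 2). Both are descriptions over pairs that share libraries and depth.

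**Figure D2:**
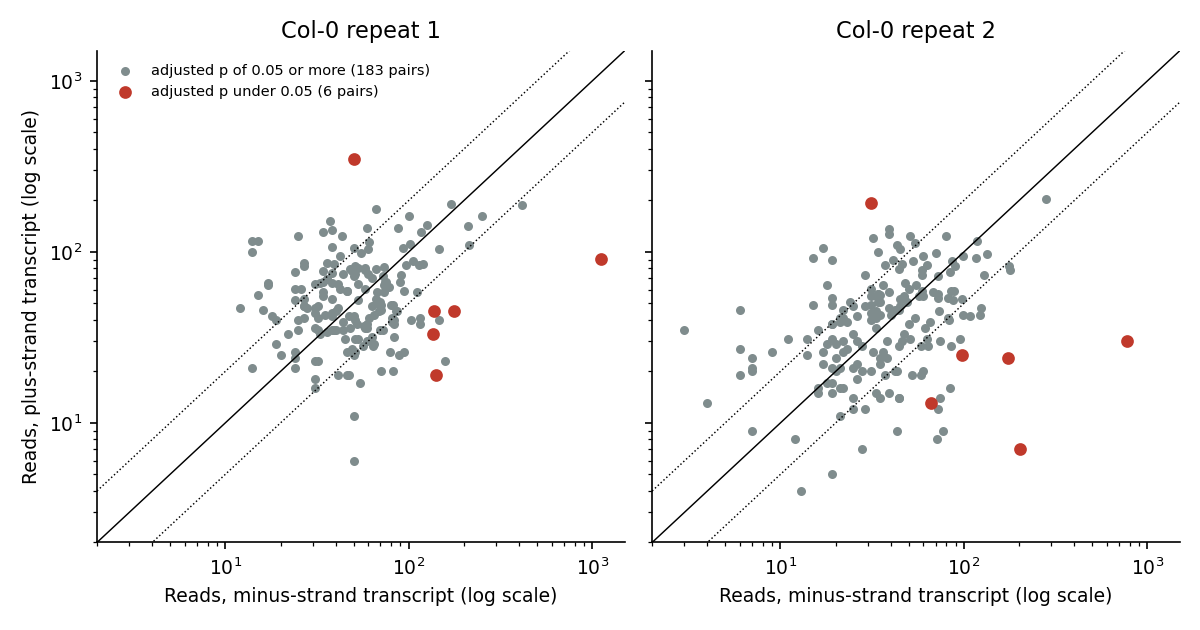
Col-0 reads of the plus-strand transcript (vertical, log scale) against the minus-strand transcript (horizontal, log scale) for the 189 convergent pairs, 1 point per pair and 1 panel per repeat, with a solid line at equal reads and dotted lines at 2-fold. In repeat 1, 125 pairs lie between the dotted lines, in repeat 2, 114, and the 6 red points are the pairs that passed the strand test.

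Whether a strand difference exceeded the spread between the repeats was tested with edgeR's quasi-likelihood test of plus over minus Col-0 reads, run on all 1181 pairs of the list. At an adjusted p under 0.05, 6 of the 189 convergent pairs (3.17%) were called, against 2.54% of all pairs. The plus strand was higher in 1 (0.529%, against 1.27% of all pairs) and the minus strand in 5 (2.65%, against 1.27% of all pairs). Without adjustment, 30 convergent pairs (15.9%) had a p under 0.05, against 16.9% of all pairs. Both strands of a pair were counted in the same library, so the repeat number pairs them. With the repeat as a block, 4 convergent pairs were called and 2.12% of all pairs. DESeq2 called 13 convergent pairs (6.88%) on the same library sizes, against 5.0% of all pairs, so the number depends on the tool. The split between strands depended on it as well, with 4 plus and 9 minus by DESeq2, and 6 plus and 8 minus by edgeR when at least 10 reads were required on each strand in each repeat (14 of 171 convergent pairs, against 6.58% of all pairs tested so).

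**Figure D3:**
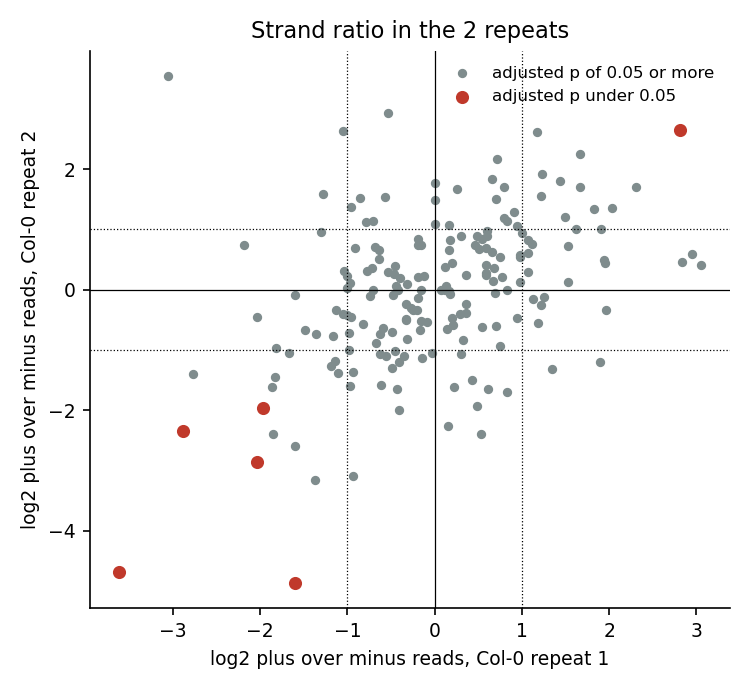
Log2 ratio of plus over minus Col-0 reads in repeat 2 (vertical) against repeat 1 (horizontal) for the 189 pairs, with dotted lines at 2-fold. All 6 called pairs (red) lie on the same side of 0 in both repeats, and 70 pairs have opposite signs or no difference in 1 repeat.

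PVTrans2325/PVTrans2326 had the smallest adjusted p among pairs with both transcripts within the limits. It lies on chromosome 3 (10937515 to 10938816), 1489 bp from HB34, a zinc finger homeodomain gene. PVTrans2325 had 33 and 24 Col-0 reads and PVTrans2326 had 136 and 174, so the minus strand was higher in both repeats and the counts did not overlap. The log2 ratio of plus over minus was −2.49 ± 0.49 (SE, edgeR, adjusted p = 0.0118). The overlap had 4 further copies in the genome, and the part of these copies in the read counts was not tested.

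PVTrans985/PVTrans986 on chromosome 1 (25331932 to 25333014) had 19 and 13 plus-strand and 140 and 66 minus-strand reads in Col-0. The minus strand was again higher in both repeats, with a log2 ratio of −2.64 ± 0.58 (SE, edgeR, adjusted p = 0.0242). The minus-strand transcript PVTrans986 was overlapped by an AGO4-bound transcript with 0 reads in *ago4* and 30 in Col-0. The pair lies between AT1G67580 and AT1G67590, 44 bp from AT1G67590.

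PVTrans1838/PVTrans1839 on chromosome 2 (11669081 to 11669606) had 45 and 7 plus-strand and 137 and 203 minus-strand reads in Col-0. Its log2 ratio was −2.86 ± 0.64 (SE, edgeR, adjusted p = 0.0260), with an adjusted p of 0.0782 under the block. The AGO4-bound transcript on its minus strand had 0 reads in *ago4* and 49 in Col-0. The pair ends 23 bp from the start of AT2G27260 on the right. The nearest gene on the left, 3284 bp away, is CLV3, which encodes the peptide that limits stem cell number in the shoot meristem.

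PVTrans2431/PVTrans2432 on chromosome 3 (12347808 to 12349392) had 45 and 25 plus-strand and 176 and 98 minus-strand reads in Col-0. Its log2 ratio was −1.96 ± 0.47 (SE, edgeR, adjusted p = 0.0423), with an adjusted p of 0.0565 under the block. The pair overlaps QQS by 345 bp. QQS is a gene without relatives outside *Arabidopsis thaliana* that affects starch content, and a pseudogene, AT3G30722, covers the middle of the overlap.

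The 2 called pairs with the most reads each had 1 very long transcript that was not a member. PVTrans166 had 91 and 30 Col-0 reads over 1229 bp, and its minus-strand partner PVTrans167 had 1115 and 775 over 4989 bp. PVTrans167 had 68 and 7 reads in *nrpe1*. The log2 ratio was −4.02 ± 0.64 (SE, edgeR, adjusted p = 0.0055). With length as an offset it was −2.0 and its adjusted p was 0.10, so the call did not hold per base. The pseudogene AT1G25430 lies in the span, and the next gene to the right is BBX15, a B-box zinc finger gene, 266 bp away.

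PVTrans2250/PVTrans2252 was the only called pair with a higher plus strand. PVTrans2250 had 351 and 194 Col-0 reads over 5002 bp, and PVTrans2252 had 50 and 31 over 368 bp. PVTrans2250 had 77 and 6 reads in *nrpe1*. The log2 ratio was 2.73 ± 0.46 (SE, edgeR, adjusted p = 0.0055). With length as an offset the direction turned, to −1.03, with an adjusted p of 0.28. The sign of this difference therefore depended on whether reads or reads per base were compared. The middle of the overlap lies in the protein-coding gene AT3G26618, and the span also holds the protein-coding gene AT3G26616 and the pseudogene AT3G26614.

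The remaining pairs among the 5 with the most reads did not pass the strand test. PVTrans837 had 188 and 78 Col-0 reads and PVTrans838 414 and 178, with more on the minus strand in both repeats (adjusted p = 0.24 in edgeR). PVTrans3928 had 109 and 205 reads and PVTrans3929 212 and 279 (adjusted p = 0.63 in edgeR). PVTrans585 had 142 and 83 and PVTrans586 209 and 177 (adjusted p = 0.38 in edgeR). In all 3 pairs the minus strand was higher in both repeats, by less than the fit could separate from the spread between repeats. Per base, with both repeats summed, the order stayed the same in PVTrans837/PVTrans838 and PVTrans585/PVTrans586 and turned in PVTrans3928/PVTrans3929, where the log2 ratio of plus over minus reads per base was 1.31. PVTrans838 (1814 bp) and PVTrans3929 (2209 bp) were too long to be members.

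**Figure D4:**
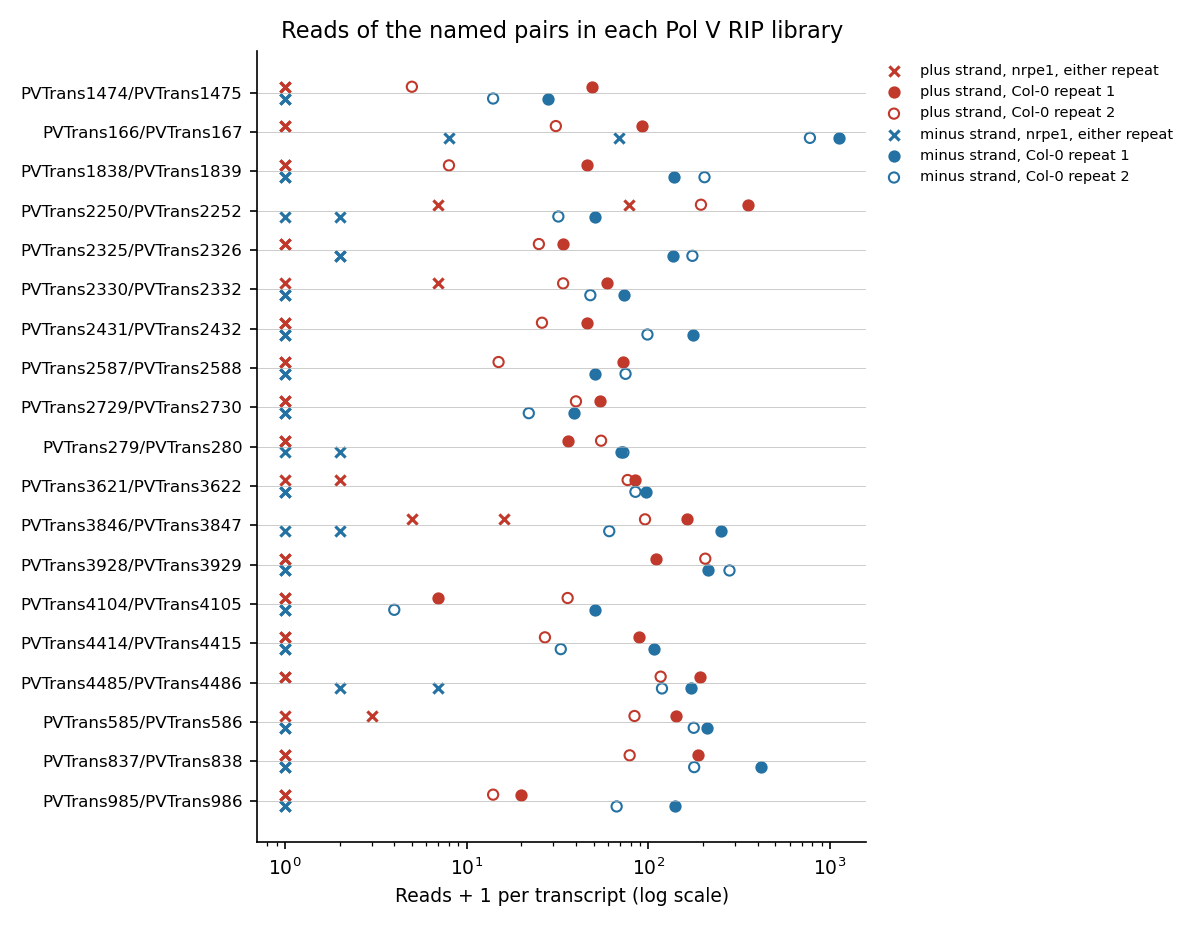
Reads + 1 (log scale) of 19 named pairs in each Pol V RIP-seq library, with crosses for *nrpe1*, filled circles for Col-0 repeat 1 and open circles for Col-0 repeat 2, in red for the plus and blue for the minus strand. The crosses lie left of the circles in every pair for the same strand, with the highest *nrpe1* counts at PVTrans2250 (77) and PVTrans167 (68), which were no members.

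AGO4-bound transcripts, called from the AGO4 RIP-seq, were found on a minority of members. A member without such a call can still have AGO4 signal. From the AGO4 RIP-seq signal over all Pol V transcripts, the paper concludes that AGO4 is associated with most of them. Of the 322 members, 88 (27.3%, Wilson 95% interval 22.8 to 32.4%) were covered over at least 50% of their length by an AGO4-bound transcript of the same strand. The share was 36.0% in divergent, 29.0% in nested and 19.6% in single-strand transcripts within the same limits, and 25.3% in the whole list. These shares were not compared by a test. The AGO4-bound transcripts on the 88 members had between 0 and 5 reads in *ago4* and between 8 and 88 in Col-0, with medians of 0 and 19. The genotypes did not overlap there, but the authors had called these transcripts by enrichment in Col-0 over *ago4* on the same 2 libraries. There was no second AGO4 RIP-seq library of either genotype to check them with. For the whole Pol V list the ranges were 0 to 25 in *ago4* and 5 to 788 in Col-0.

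The share varied with the Pol V reads of the members. It was 16.8% in the 107 members with the fewest mean Col-0 reads (16 to 33.5), 17.8% in the next 107 and 47.2% in the 108 with the most (51.5 to 193). The whole list, divided into 3 classes by reads in the same way, had 14.2%, 20.8% and 41.0%. Members with an AGO4-bound transcript had a median of 55.5 Pol V reads and a length of 639.5 bp, and those without had 38.5 reads and 805.5 bp. The AGO4 list, like the Pol V list, keeps transcripts above a minimum number of reads, and the part of this filter in the difference was not tested.

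Convergent pairs with a called AGO4-bound transcript mostly had it on 1 strand only. The coverage rule given above decided these calls, so a strand covered over a smaller part of its length counted as having none. Of the 189 convergent pairs, 11 (5.82%) had an AGO4-bound transcript on both strands, 34 on the plus strand alone, 47 on the minus strand alone and 97 on neither. Divergent pairs had it on both strands in 15.6% and all pairs in 12.2%. In 59 of the 81 convergent pairs with AGO4 on 1 strand (72.8%), that strand also had more Pol V reads in Col-0, against 67.9% of such pairs in the whole list. Of the bases in the overlaps, counted on each strand, 28.1% were covered by an AGO4-bound transcript of that strand, against 17.6% of the bases in the arms. In divergent pairs these shares were 34.6% and 17.8%.

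PVTrans3928/PVTrans3929 had the most AGO4 reads. Its plus-strand AGO4-bound transcript had 4 reads in *ago4* and 88 in Col-0, and its minus-strand one had 5 and 32. The strand with more AGO4 reads was thus plus, while the strand with more Pol V reads was minus (plus, when counted per base). PVTrans837/PVTrans838 followed with an AGO4-bound transcript on the minus strand (2 reads in *ago4* and 95 in Col-0), the strand that also had more Pol V reads. Its plus strand was not counted, but AGO4-bound transcripts of that strand covered 474 bp of the 479 bp overlap.

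PVTrans4485/PVTrans4486 and PVTrans3621/PVTrans3622 were balanced in both assays. PVTrans4485 had 191 and 116 Pol V reads in Col-0 and PVTrans4486 170 and 118, and their AGO4-bound transcripts had 0 reads in *ago4* on either strand and 39 (plus) and 51 (minus) in Col-0. PVTrans3621 had 84 and 76 Pol V reads and PVTrans3622 96 and 84. Their AGO4-bound transcripts had 0 reads in *ago4* and 25 in Col-0 on the plus strand, and 4 in *ago4* and 30 in Col-0 on the minus strand. PVTrans585/PVTrans586 had an AGO4-bound transcript on the minus strand only, with 0 reads in *ago4* and 53 in Col-0. PVTrans4486 had 6 and 1 reads in *nrpe1* and is no member, while PVTrans4485 had none.

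In the 11 pairs with AGO4 on both strands, the AGO4-bound transcripts ran towards each other in 4 pairs, away from each other in 3 and were nested in 4. They overlapped each other in 9 of the 11 pairs, and the 2 pairs without an overlap were among those running towards each other. The AGO4 reads of the strands were within 2-fold of each other in 9. The strand with more AGO4 reads was the one with more Pol V reads in 6 of the 11.

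In the median pair the overlap was poorer in A and T than the sequence around it. The overlap had a median of 63.8% A and T, the arms 67.0% and the 300 bp on each side of the pair 67.7%. Within a pair, the overlap had a median of 2.65 percentage points less A and T than the arms (the difference, overlap minus arms, was −2.65, with an order-statistic 95% interval of −4.50 to −1.46 over pairs), and it was the richer one in A and T in 58 of 189 pairs. CG sites numbered 2.87 per 100 bases in the overlaps, 2.23 in the arms and 2.0 in the flanks. CHG sites, with H for A, C or T, numbered 2.33, 2.0 and 1.83, and CHH sites 12.7, 11.9 and 11.9 per 100 bases, averaged over both strands. The difference in A and T between overlap and arms was −3.87 percentage points in divergent and −2.97 in nested pairs, so all 3 arrangements had the same sign.

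**Figure D5:**
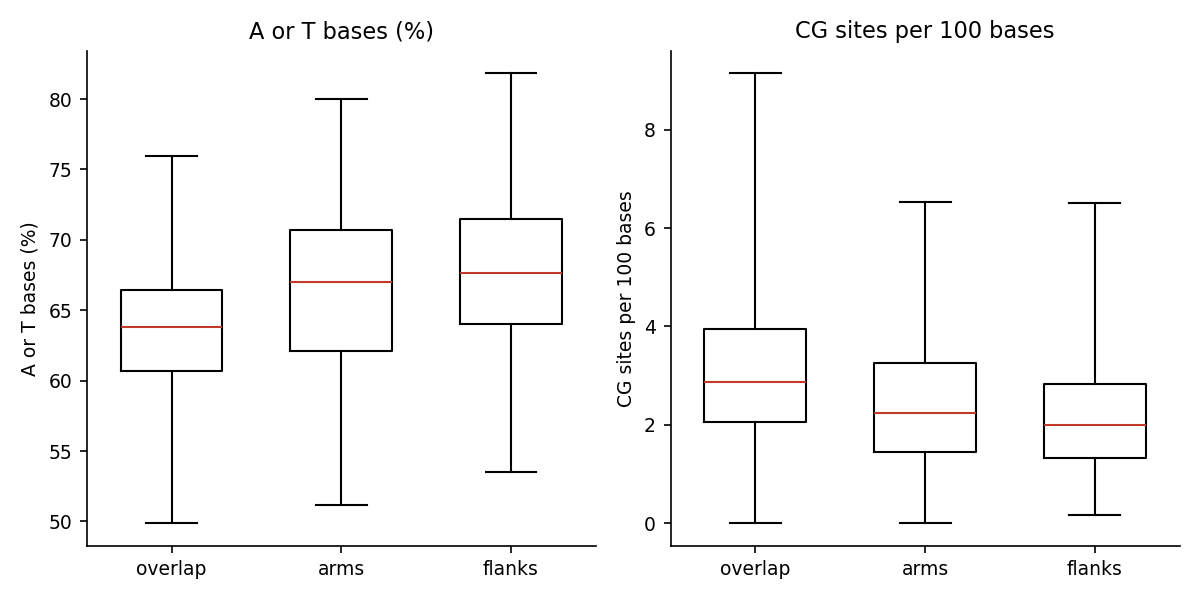
Share of A or T bases (left, in %) and CG sites per 100 bases (right) in the overlaps, the arms and the 300 bp flanks of the 189 convergent pairs, with boxes from the lower to the upper quartile, red medians and whiskers to the lowest and highest pair. The median share of A and T is 63.8% in overlaps, 67.0% in arms and 67.7% in flanks, and the boxes overlap each other.

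Convergent pairs, like the other pairs of the list, lay mainly between genes. The middle of the overlap was outside any gene of the TAIR10.1 annotation in 150 of 189 pairs (79.4%). The share was 84.4% in divergent, 81.6% in nested and 81.2% in all pairs. In the convergent pairs the middle was inside a pseudogene in 26 (13.8%) and in a transcribed pseudogene in 4. It was in a long noncoding RNA gene in 5 and in a protein-coding gene in 5. In divergent pairs 5.66%, in nested pairs 8.28% and in all pairs 9.23% were in a pseudogene. The authors called transcripts from reads outside TAIR10 genes, so a place outside genes was in part fixed by the calling. Whether the genes found here at overlap middles were also in the TAIR10 gene set was not checked. A protein-coding gene reached into the span of 57 pairs (30.2%, against 23.9% of all pairs).

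The nearer protein-coding gene most often turned its 5′ end to the pair. It was a median of 783 bp from the middle of the overlap and faced it with its 5′ end in 136 of 189 cases (72.0%, against 63.8% of all pairs). Its start was within 1 kb in 78 pairs (41.3%, against 34.0%). Both neighbours turned their 5′ ends to the pair in 72 pairs (38.1%, against 37.7% of all pairs). Both turned their 3′ ends in 12 (6.35%, against 11.2%). The strand with more Pol V reads ran towards the nearer gene in 83 pairs (43.9%, against 45.0% of all pairs). In 18 pairs (9.52%, against 13.0% of all pairs), protein-coding genes covered less than 20% of the surrounding 1000 kb. The median was 55.9%. The shares of convergent and all pairs were not compared by a test.

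An inverted repeat was found in the span of few pairs. A match of at least 50 bp and 80% identity between the 2 orientations was found in 10 spans (5.29%, against 3.64% in nested and 1.81% in divergent pairs). In 4 of these the stems were separate, and the other 6 were palindromes whose arms ran into each other. The 4 pairs are named for this, chosen after their sequences were seen. PVTrans685/PVTrans686 had stems of 213 bp with 93.0% identity, 1 of them left of the middle of the overlap and 1 right of it, as printed above. PVTrans685 had 30 and 28 Col-0 reads and PVTrans686 59 and 85. Both strands had an AGO4-bound transcript, with 0 reads in *ago4* on each and 13 (plus) and 15 (minus) in Col-0. The stems are alike, and the part that read placement between them had in these counts was not tested.

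The other 3 pairs with separate stems were unlike in their reads. PVTrans1080/PVTrans1081 (276 bp, 88.0% identity) had 66 and 48 plus-strand and 33 and 25 minus-strand reads in Col-0. PVTrans2732/PVTrans2733 (273 bp, 82.1% identity) had 33 and 24 plus-strand and 33 and 7 minus-strand reads. PVTrans799/PVTrans800 (122 bp, 89.3% identity) had 11 and 57 plus-strand and 50 and 34 minus-strand reads, so its stronger strand changed between the repeats.

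Most overlaps had no other copy over most of their length. Of 185 overlaps of at least 100 bp, 152 (82.2%) had no other copy in the genome with 80% identity over 80% of their length. The share was 84.0% in all pairs. At least 1 copy was found for 33 overlaps and at least 5 for 8, and the highest number was 15. Matches over a shorter part of the overlap were not counted as copies. Among the pairs without another such copy, 73 of 257 members (28.4%) had an AGO4-bound transcript and 35 of 152 pairs (23.0%) differed at least 2-fold between strands. Some overlaps resembled each other: 1 group of 4 pairs and 7 groups of 2 had matching stretches. PVTrans3322/PVTrans3323, whose sequence is printed above, had 28 and 55 plus-strand and 56 and 47 minus-strand reads in Col-0 and no AGO4-bound transcript. Its look-alike PVTrans4498/PVTrans4499 had 59 and 58 plus-strand and 46 and 68 minus-strand reads, and an AGO4-bound transcript on the minus strand with 0 reads in *ago4* and 41 in Col-0.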

How the data were processed

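Per the labels and methods of the study, RNA from formaldehyde-fixed seedlings was immunoprecipitated with antibodies against NRPE1 or AGO4, and strand-specific libraries were sequenced. The authors mapped reads to TAIR10 with SOAPsplice and called transcripts from unique reads outside genes, by number, spacing and density of reads and by enrichment over the mutant. The values used are the raw read counts per transcript and library that the authors deposited, without normalization. Columns with the p-values and q-values of the authors' own test were not used. AGO4 RIP-seq in *nrpe1* and Pol V RIP-seq in *ago4* and *idn2* were not analysed here. The pairing of strands comes from the library, since both were counted in it: the deviations of plus and minus transcripts between repeats had a Spearman correlation of 0.26 across the 189 pairs.

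The members and lists were chosen with earlier results of these data known. Overlaps used starts and ends as deposited, with length equal to end minus start. Genes and sequence came from TAIR10.1, whose nuclear chromosomes serve for TAIR10 coordinates. The strand test used edgeR 4.0.16 in R 4.3.3 on all 1181 opposite-strand pairs, with the Col-0 reads on all listed transcripts as library sizes, no filter and Benjamini-Hochberg adjustment. It was tried on data simulated with 1 dispersion for all pairs. There it called 193 of 200 pairs given an 8-fold strand difference, and 8 pairs given none. Smaller differences were not simulated. DESeq2 1.42.0 was an alternative. Repeats and copies were searched with blastn 2.17.0. Pairs were named by a rule: the locus with primers, the 5 with the most reads, the 3 longest and shortest overlaps with ties, up to 5 called in each direction, the 5 with the most AGO4 reads and the members nearest each limit. Precision is limited by 2 repeats and counting error, and the reads carry no molecular identifiers. The sequence of 1 overlap is not reported here.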

Additional observations from a re-analysis of the deposited data

How the results depend on the processing

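The number of convergent pairs called for a strand difference moved most. Against 6 by edgeR, it was 13 by DESeq2 with the same library sizes, 15 by DESeq2 with its own size factors and 14 when pairs needed at least 10 reads on each strand in each repeat. TMM normalization and length as an offset each gave 9, and the pairs with both transcripts within the limits, an alternative chosen after seeing the data, gave 4 of 137. With the replicate block it was 4, all among the 6, and PVTrans1838/PVTrans1839 and PVTrans2431/PVTrans2432 lost their call. With length as an offset the log2 ratio of PVTrans2250/PVTrans2252 turned to −1.03. PVTrans2325/PVTrans2326 and PVTrans985/PVTrans986 were called under all 6 alternatives. Pairs at least 2-fold apart between strands numbered 45, and between 64 and 75 with 1 replicate left out. The share of members with an AGO4-bound transcript was 37.9% when 1 base of overlap sufficed, and overlap middles outside genes made up 97.4% with protein-coding genes alone. Both follow from the wider rule. The cause of the other changes was not tested.

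The number of members, the median overlap, the median Col-0 reads, the median bound and the difference in A and T stayed within 1.5-fold or the spread under the alternatives run for each. The fold bounds are limited by the floor of 3 reads and by the unknown depth of the libraries.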

Other observations

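In 5 convergent pairs the strands differed at least 2-fold in opposite directions in the 2 Col-0 repeats. These pairs were singled out after their values were seen. PVTrans689/PVTrans690 had 39 and 105 reads on the plus strand in repeats 1 and 2, and 81 and 17 on the minus strand. PVTrans852/PVTrans853 had 61 and 14 plus-strand and 24 and 35 minus-strand reads. PVTrans2436/PVTrans2437 had 56 and 28 plus-strand and 15 and 64 minus-strand reads. PVTrans4416/PVTrans4417 had 19 and 21 plus-strand and 46 and 7 minus-strand reads. The fifth is PVTrans4104/PVTrans4105, with the second shortest overlap. In all 5 pairs the total of both strands changed less than the balance between them, and the pairs were chosen for a changed balance.

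PVTrans4442/PVTrans4443 had AGO4-bound transcripts of nearly equal reads on both strands, with 0 reads in *ago4* on each and 25 (plus) and 27 (minus) in Col-0. Its Pol V reads in Col-0 were 116 and 51 plus-strand and 15 and 34 minus-strand reads, and PVTrans4442 had 0 and 6 reads in *nrpe1*. A stretch of 164 aligned bases of its overlap matched that of PVTrans585/PVTrans586 with 89.0% identity.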
